A study of Homo sapiens with 4 samples.

Results

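RBMS1, RBMS2 and RBMS3 encode a family of RNA-binding proteins, and their H3K27ac regions were described in KGN, a cell line derived from a human granulosa cell tumor. Acetylation of lysine 27 of histone H3 (H3K27ac) marks active promoters and enhancers. It was mapped by ChIP-seq, the sequencing of DNA that an antibody to the mark pulls down, in cells treated for 24 h with testosterone (10 um, as labelled) and in control cells, all grown in serum-containing medium. Each condition had 1 immunoprecipitated (IP) library and 1 input library, 4 libraries in all, and regions had been called for each condition from its IP set against its own input. A region belonged to the family if the authors had credited it to 1 of the 3 genes, in general the gene with the nearest annotated start, and 23 of the 19714 regions of both lists did. The testosterone list held 6 of them among its 604 regions, and the control list held 17 among its 19110. The genes were chosen by the number of regions credited to them in these lists, so the counts below describe them and no test was made on them.

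With 1 IP library per condition, differences between the conditions could not be checked against replicates and have no p-value. Judged from the lowest local backgrounds, the caller used about 1.03 times as many fragments from the testosterone IP as from the control IP. This depth ratio takes the shortest region of each list as the fragment length. The numbers of reads sequenced were not compared. A place without a region has no value in either list, so signal under the limit of the caller cannot be told from no signal. Of 6 granulosa markers, FOXL2 and NR5A1 were credited with a control region, FSHR, AMH, CYP19A1 and INHA with none, and none of the 6 with a testosterone region. EPCAM, an epithelial gene, was credited with 1 testosterone and 3 control regions, while the theca, endothelial, leukocyte and germ cell markers CYP17A1, PECAM1, PTPRC and DAZL had none in either list.

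RBMS proteins carry a pair of RNA recognition motifs and bind single-stranded DNA and A- and U-rich RNA. RBMS1 was first described as a protein that binds single-stranded DNA near the MYC gene, and it also acts in mRNA stability and translation. RBMS2 is its close relative. RBMS3 is a mainly cytoplasmic protein that stabilizes target mRNAs in activated hepatic stellate cells. A gene that a cell transcribes from a start site usually carries H3K27ac around that start.

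None of the 3 genes had a region at its RefSeq start in either list. RefSeq promoter windows, 250 bases before to 50 bases after a start, overlapped a testosterone region in 0.311% and a control region in 29.9% of 22199 windows of protein-coding genes. The window of RBMS1 (chr2:160493758-160494057, minus strand) lay 14.2 kb from the nearest control region, which was the RBMS1 region itself. That of RBMS2 (chr12:56521570-56521869, plus strand) lay 32.7 kb from the nearest control region, credited to GLS2. This RBMS2 window lies inside the RefSeq span of the gene, which begins at 56520405, so it belongs to a start within the span. The first base of the span had no region either. That of RBMS3 (chr3:29280821-29281120, plus strand) lay 6.35 kb from the nearest testosterone region and 107 kb from the nearest control region, both credited to RBMS3. The strongest region credited to RBMS3 instead covered all 300 bases of the window of LOC107986012 (chr3:28576278-28576577, minus strand), a gene model that RefSeq places before RBMS3. The 4 windows are shown to set the unmarked starts beside the marked one. They are from RefSeq on GRCh38.p14, read 5′ to 3′ on the strand of the gene, and capitals mark matches to the motifs named below.
RBMS1: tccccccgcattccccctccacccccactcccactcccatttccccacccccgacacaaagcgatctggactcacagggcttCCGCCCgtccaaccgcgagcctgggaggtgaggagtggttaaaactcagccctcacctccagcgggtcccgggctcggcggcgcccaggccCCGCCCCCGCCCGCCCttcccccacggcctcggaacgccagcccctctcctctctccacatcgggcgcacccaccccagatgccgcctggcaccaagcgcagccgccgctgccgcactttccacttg
RBMS2: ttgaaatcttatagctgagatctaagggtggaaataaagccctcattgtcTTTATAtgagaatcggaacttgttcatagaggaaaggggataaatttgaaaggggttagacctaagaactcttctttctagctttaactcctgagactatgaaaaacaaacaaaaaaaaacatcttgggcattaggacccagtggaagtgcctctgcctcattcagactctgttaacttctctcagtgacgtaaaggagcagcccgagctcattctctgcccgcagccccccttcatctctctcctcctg
RBMS3: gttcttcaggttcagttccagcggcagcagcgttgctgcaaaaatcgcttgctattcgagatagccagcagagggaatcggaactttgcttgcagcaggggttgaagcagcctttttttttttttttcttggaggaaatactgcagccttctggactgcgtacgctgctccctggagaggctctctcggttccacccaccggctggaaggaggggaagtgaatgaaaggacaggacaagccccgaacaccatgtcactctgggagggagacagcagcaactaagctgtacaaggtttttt
LOC107986012: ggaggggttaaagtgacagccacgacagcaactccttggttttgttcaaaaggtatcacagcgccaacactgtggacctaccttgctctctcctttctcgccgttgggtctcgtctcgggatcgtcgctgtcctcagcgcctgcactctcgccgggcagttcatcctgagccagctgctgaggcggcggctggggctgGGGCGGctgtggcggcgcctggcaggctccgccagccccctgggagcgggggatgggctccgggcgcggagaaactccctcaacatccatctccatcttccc

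The windows differ in base composition. G and C made up 71% of the RBMS1 window, 43.3% of the RBMS2 window, 52% of the RBMS3 window and 64.3% of the LOC107986012 window, which hold 25, 4, 10 and 21 CG dinucleotides in that order. All windows were divided into 10 groups by G and C content. The share that overlapped a control region was 47.2% in the group that holds RBMS1, 5.69% in that of RBMS2, 15.2% in that of RBMS3 and 38.2% in that of LOC107986012. The RBMS1 window lay in a group with a high share of marked windows, and those of RBMS2 and RBMS3 in groups with lower shares. The motif GGGCGG of SP and KLF factors, on either strand and with overlapping matches counted, occurred 4 times in the RBMS1 window and 1 time in that of LOC107986012, and 56.3% of all windows hold it. TATAAA occurred 1 time in the RBMS2 window, and 9.47% of all windows hold it. The motifs CCAAT (34.7% of windows), TGANTCA of AP-1 (6.15%), CACGTG (8.34%), AGAACA, 1 arm of an androgen response element (11.7%), and AAGGTCA, 1 arm of other nuclear receptor sites (3.22%), had no match in these 4 windows.

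**Figure D1:**
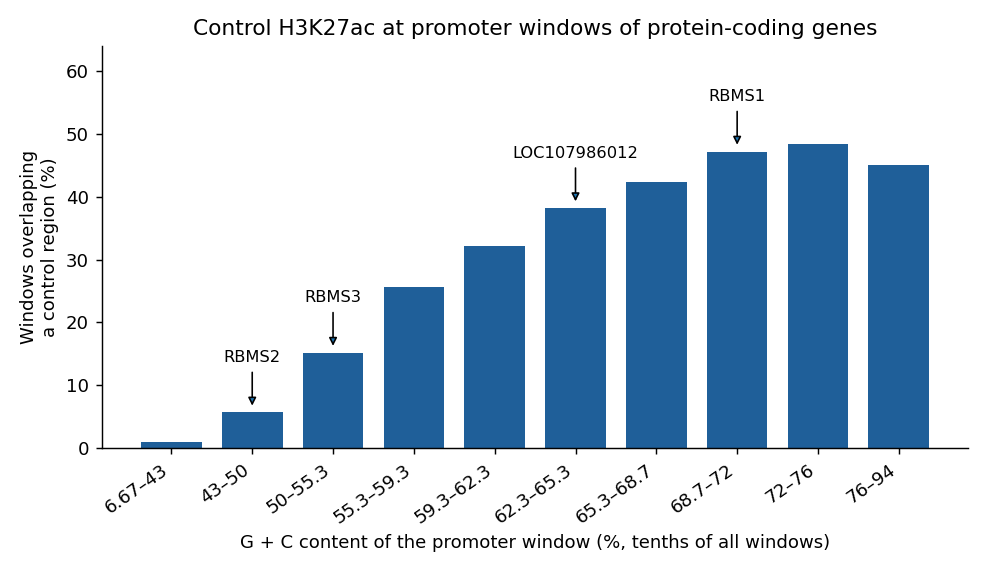
Share of RefSeq promoter windows of protein-coding genes that overlap a control region (y axis, %), for 10 groups of windows by G and C content (x axis, %). Arrows mark the groups that hold the windows of RBMS1, RBMS2, RBMS3 and LOC107986012, where the shares are 47.2%, 5.69%, 15.2% and 38.2%, and of the 4 windows that of LOC107986012 alone overlaps a region.

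RBMS1 (ENSG00000153250 in the authors' annotation; chromosome 2, 160272151 to 160493807 in RefSeq) had no testosterone region and 1 control region. The control region (chr2:160479337-160479588) was 252 bp wide and lay in intron 1, 14.2 kb inside the gene from its start. It reached 8 IP fragments at its summit (95% Poisson interval 3.45 to 15.8, counting error only) and had a fold enrichment of 4.068 at a -log10 q of 2.13. The local background is given in units of the deposited pileup, in which 1 testosterone fragment counts 1 and 1 control fragment 0.9366, and it was 1.087 here beside a pileup of 7.49. Fold enrichment, the pileup over the local background with 1 added to both, was lower in 24% of control regions, so this was among the weaker ones. Its -log10 p of 4.731 was under the lowest of the testosterone list, 4.925, so no region of this strength was in that list.

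RBMS2 (chromosome 12, 56520405 to 56596193 in RefSeq) was credited with no region in either list, and no region lay on its span or within 1 kb of it. Of 20037 protein-coding genes, 2.35% were credited with a testosterone region and 46.7% with a control region, so a gene with neither is common. Of its 3 neighbors, 2 were marked in control cells, and ATP5F1B, a subunit gene of the mitochondrial ATP synthase, had no region in either list. BAZ2A, a chromatin remodeling gene whose 3′ part overlaps the end of RBMS2, was credited with 2 control regions (strongest fold 5.756), and GLS2, the glutaminase gene on its other side, with 2 (6.339).

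RBMS3 (ENSG00000144642; chromosome 3, 29281071 to 30010395 in RefSeq, a span of 729.3 kb) was credited with 6 testosterone and 16 control regions. By number it had rank 3 among the 488 genes in the testosterone list, after ZFHX3 with 12 and PDE4D with 9, and shared rank 32 with 3 other genes among the 9767 genes of the control list. ZFHX3 encodes a transcription factor and PDE4D a phosphodiesterase that degrades cyclic AMP. The genes whose pair of counts was most like that of RBMS3, by the summed difference of log2(count + 1) over the 2 lists, included PDE4D (9 testosterone and 17 control regions), SLC38A2 (4 and 14), TGIF1 (3 and 18) and SLC25A21 (3 and 12). For RBMS1, 5273 other genes had the same pair of counts, those closest to it in span being MYO5A, CLASP2, MBNL1, HECTD4 and SRBD1. For RBMS2 it was 10626 genes, with CWH43, UBE2F, CCDC169, GLYATL2 and MAK the closest in span.

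**Figure D2:**
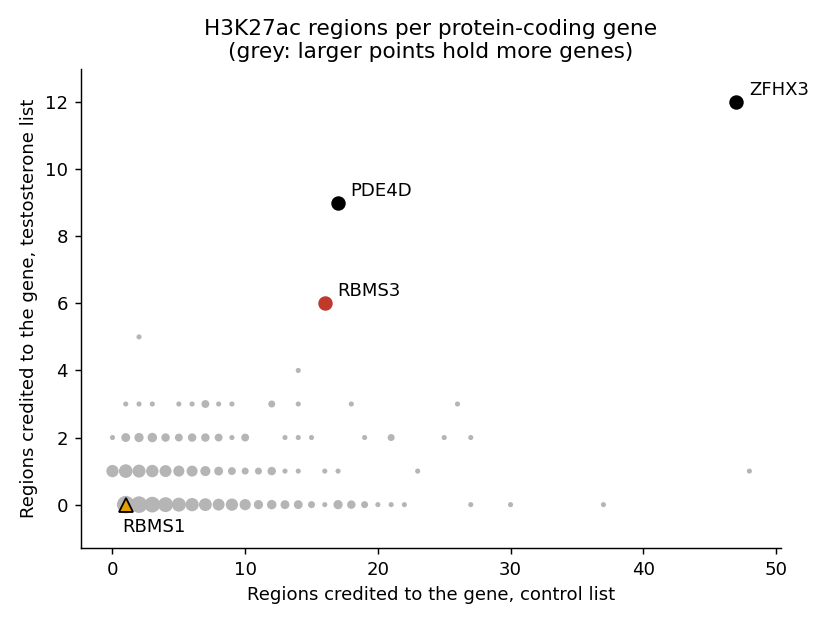
Number of H3K27ac regions credited to each protein-coding gene in the testosterone list (y axis) and in the control list (x axis), with grey points larger where more genes share a position. RBMS3 lies at 6 and 16, below ZFHX3 (12 and 47) and PDE4D (9 and 17), and RBMS1 lies at 0 and 1. RBMS2 has no region in either list and is not drawn.

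A long gene offers more room for regions. Of 315 protein-coding genes that span at least 500 kb, 7 (2.22%) had a testosterone region on their span. Among them RBMS3 had rank 155 by span, rank 3 by testosterone regions and rank 6 by control regions. The genes of this size with 2 or more testosterone regions were ZFHX3 (10 testosterone and 43 control regions on its span), PDE4D (8 and 15), RBMS3 (6 and 14), BCAS3 (5 and 23) and DLGAP1 (3 and 21). Per megabase of span this came to 8.23 testosterone and 19.2 control regions for RBMS3, 9.02 and 38.8 for ZFHX3, and 5.15 and 9.66 for PDE4D.

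The strongest region of the family was found in control cells alone, at an upstream start of RBMS3. This control region (chr3:28575503-28577079) was 1577 bp wide, with 29 IP fragments at the summit (19.4 to 41.6) over a background of 1.087, a fold of 13.49 and a -log10 q of 24.1. Its fold was above that of 99.4% of control regions. The authors' annotation starts its longest RBMS3 transcript inside it, at 28576466, which is 704.6 kb before the RefSeq start. RefSeq places there the start of LOC107986012, on the minus strand, and, 176 bp from the region, the promoter window of LINC00693, a long non-coding RNA gene on the plus strand. To which of these starts the acetylation belongs was not tested. The nearest testosterone region lay 710 kb away. Of all promoter windows of protein-coding genes, 29.9% overlapped a control region and 0.311% a testosterone region. A start marked in the control list alone is therefore what most marked starts show.

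All 6 testosterone regions of RBMS3 were intronic, and they were spread over 398.7 kb from close to the RefSeq start to the middle of the gene. Introns are numbered along a transcript with 13 introns that the authors' annotation gives to another Ensembl gene without a symbol in the lists. The first region (chr3:29287474-29287756, intron 8) lay 5.86 kb after the start of the assigned transcript and had 10 IP fragments at its summit (4.8 to 18.4) and a fold of 3.729. The second (chr3:29315542-29315815, intron 8), 33.9 kb after that start, had 12 fragments and the highest fold of the 6, 4.331. Both lay in a stretch after the start in which the control list had no region.

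A testosterone region in the middle of the set (chr3:29438455-29438728, intron 9) had 11 fragments and a fold of 4.122, and lay 212 bp from a control region. The next (chr3:29536822-29537130, intron 10) also had 11 fragments, with a fold of 4.05, and lay 4.38 kb from one. These were the members of the set nearest to a control region. The last in order (chr3:29644904-29645159 and chr3:29685821-29686170) lay in intron 11, where the control list had none, and each had 13 fragments (6.92 to 22.2) and a fold of 3.582. The one at 29644904 was 1.84 kb from the promoter window of RBMS3-AS2, a long non-coding RNA gene on the opposite strand.

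Each of the 6 was weak within its own list. Their folds, 3.582 to 4.331 with a median of 3.89, were all under the median of the testosterone list, 4.64, and lay above only 2.65% to 26.3% of its regions. Their -log10 q was 1.47 to 2.12, where the lowest of the list was 1.31 and the median 2.18. Against the whole list their fragment numbers were not low: the list had a median of 10, and 5 of the 6 were above it. Over a higher background, however, a region needs more fragments to be called. At backgrounds of 1.911 to 2.002 units of pileup, those of the first 4, no testosterone region had under 10 fragments. At about 2.9, that of the last ones, none had under 12. The local background of the 6, which the caller takes from the input, was high. It stood at 1.65 to 2.52 times the lowest background of the testosterone list at all 6 regions, and 17.2% of testosterone regions had a background at least that far above the lowest. By the same ratio 71.4% of control regions did. The 15 intronic control regions of RBMS3 ranged from 1 to 4.6 with a median of 1.84, where the control list had a median of 1.92. These ratios are not on the same scale in the 2 lists. Control backgrounds crowded at 2, 3, 4 and 5 units of pileup, and many raised testosterone ones at about 1.7, 2.3 and 2.9. The depths of the inputs were not compared. What raised the background at these places was not tested.

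**Figure D3:**
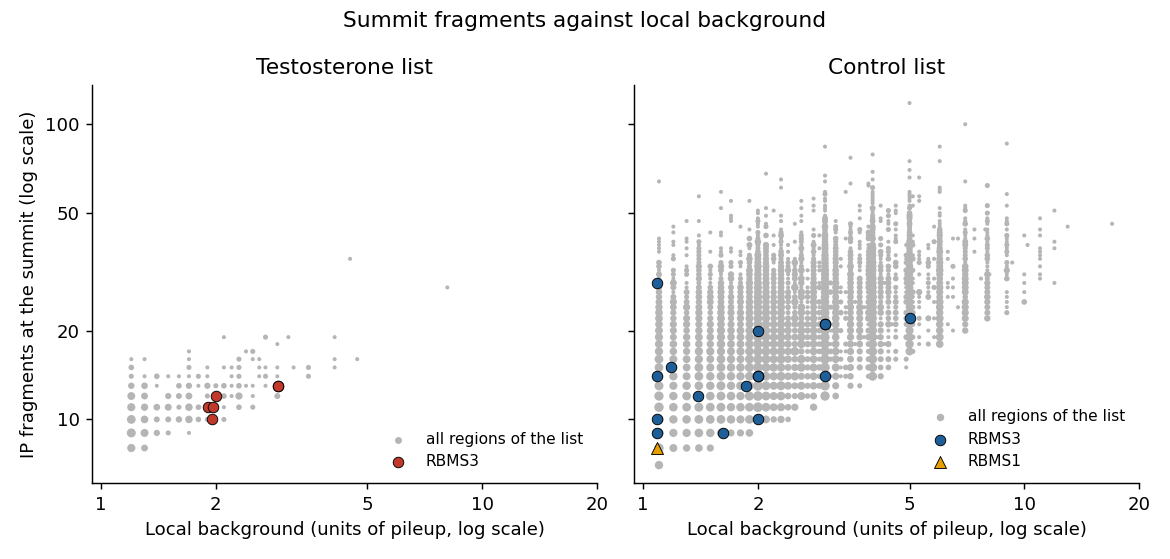
IP fragments at the summit (y axis, log scale) against the local background in units of pileup (x axis, log scale) for all regions of the testosterone list (left) and the control list (right), with larger grey points where more regions coincide. The 6 testosterone regions of RBMS3 lie at 10 to 13 fragments over backgrounds of 1.911 to 2.909, where grey points are few, and 2 of them coincide. The control regions of RBMS3 range from 9 to 29 fragments, and the RBMS1 region lies at 8.

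The summits of the testosterone regions of RBMS3 often lay near an edge of the region. In 4 of the 6 the summit was in the outer 10% of the region at either end, 6 to 24 bp from the edge, against 15.7% of all testosterone regions. In control cells it was so in 2 of 16 regions of RBMS3 and in 7.7% of all regions. Testosterone regions of RBMS3 were 256 to 350 bp wide with a median of 278.5 bp, and its intronic control regions 292 to 821 bp with a median of 343 bp.

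The 15 intronic control regions of RBMS3 formed a dense stretch with outlying members. Of these, 12 lay within 176 kb (chromosome 3, 29388522 to 29564492), in introns 8, 9 and 10, and 4 of the 12 lay within 5.127 kb (29521479 to 29526605). Intron 10 held 7 of the 15. The highest fold, 6.895, was at the first region of the stretch (chr3:29388522-29388864), with 15 IP fragments over a background of 1.183. The widest (chr3:29453363-29454183, 821 bp) had 20 fragments, a fold of 6.577 and the highest -log10 q of the 15, 8.63. The weakest fold, 3.455, was at the region 4.38 kb from a testosterone region (chr3:29541506-29541863), with 10 fragments.

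Over the 15 intronic regions the fold had a median of 4.704, and 9 of them lay under the median of the control list, 4.991. One region (chr3:29522144-29522454) had the most fragments of the 15, 22 (13.8 to 33.3), but a fold of 3.601, since its background of 4.999 was the highest. Another 2 regions lay before the RefSeq start, in intron 7, at folds of 4.704 and 4.966, and 1 lay far along the gene in intron 12, at 4.517. A further control region on the RefSeq span of RBMS3 (chr3:29984916-29985321, fold 4.517, 9 fragments) was credited to TGFBR2, the receptor gene for TGF-beta whose assigned start lies 621 kb away. Counted by position, the RefSeq span of RBMS3 thus held 6 testosterone and 14 control regions.

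**Figure D4:**
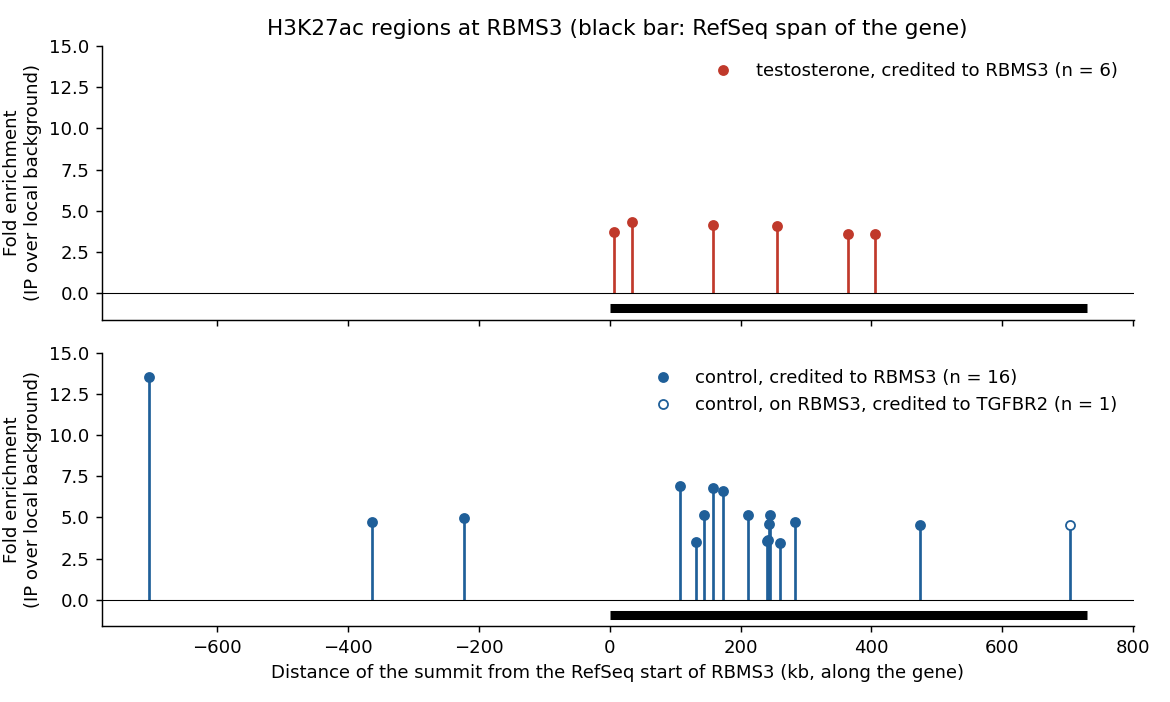
Fold enrichment (y axis) of the H3K27ac regions at RBMS3 in the testosterone list (top) and the control list (bottom), by the distance of each summit from the RefSeq start of the gene in kb (x axis), with the RefSeq span as a black bar. The 6 testosterone regions are spread over the first part of the gene at folds of 3.582 to 4.331. The control regions crowd in one stretch inside it, with the highest fold, 13.49, at the upstream start and an open circle for the region credited to TGFBR2.

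Mapped against each other, the intronic regions of RBMS3 did not coincide. None of the 6 testosterone regions shared a base with a control region, and none of the 15 intronic control regions overlapped a testosterone region. Over all genes, 13.7% of 153 intronic testosterone regions overlapped a control region and 0.759% of 2504 intronic control regions overlapped a testosterone region, so no overlap is also what most intronic regions show. The gaps ran from 212 bp and 4.38 kb at the 2 nearest testosterone regions to 69.4, 72.7, 80.4 and 101 kb at the others, with a median of 71.1 kb. The median over all intronic testosterone regions was 4.31 kb.

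Nearness to control regions differed more than overlap did. Within 10 kb of a control region lay 2 of the 6 testosterone regions of RBMS3 and 64.1% of all intronic ones. Farther than 50 kb from any control region lay 4 of the 6 and 14.4% of all intronic ones. At the genes with more testosterone regions, none lay that far: of 12 testosterone regions credited to ZFHX3, 2 overlapped a control region and 10 lay within 10 kb of one, and of 9 credited to PDE4D none overlapped and 8 lay within 10 kb. Of the 15 intronic control regions, 2 had a testosterone region within 10 kb. The share of all intronic control regions that did was not counted, so this number has nothing to be set against. The genes were chosen for their regions, so these shares describe them and were not tested.

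**Figure D5:**
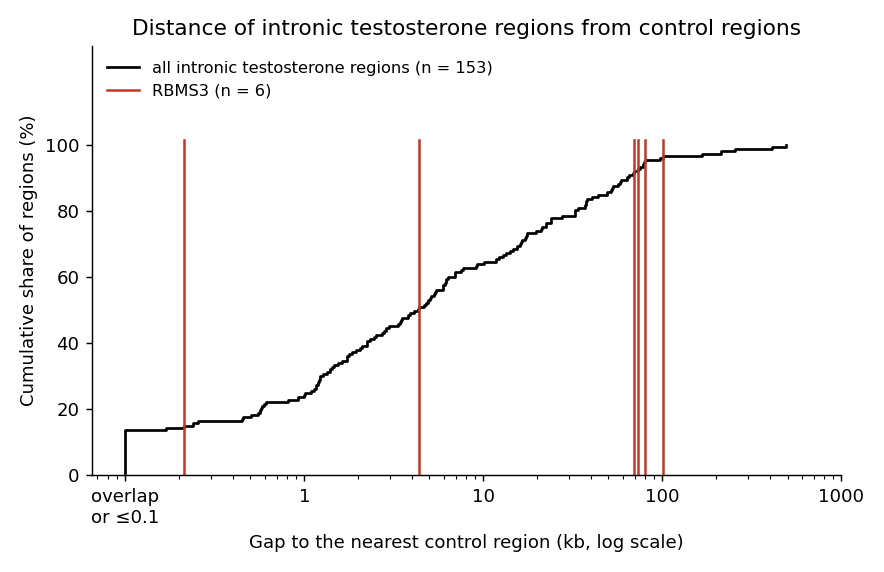
Cumulative share (y axis, %) of the 153 intronic testosterone regions by their gap to the nearest control region (x axis, kb, log scale), with overlaps drawn at the left end. Red lines mark the 6 regions of RBMS3, of which 4 stand between 69.4 and 101 kb and the others at 0.212 and 4.38 kb.

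At similar local backgrounds, the weakest regions of the control list were weaker than the weakest of the testosterone list. Such a lowest value depends on where each list ends. It can also only fall as more regions are compared, and the control list had far more. Over the whole lists the control regions had the higher medians, a fold of 4.991 against 4.64 and 17 fragments against 10. Backgrounds of 1.911 to 2.002 units of pileup, the range of the first 4 testosterone regions of RBMS3, were found at 17 testosterone and 2451 control regions. The lowest values among them were 10 IP fragments and a fold of 3.729 in the testosterone list, both those of the first RBMS3 region, and 9 fragments and a fold of 3.199 in the control list. Over the whole lists the lowest -log10 p was 4.925 in the testosterone list and 3.708 in the control list. The lowest -log10 q was nearly the same, 1.31 and 1.32, so the same -log10 q went with a lower -log10 p in the control list. Of the 15 intronic control regions of RBMS3, 13 had a -log10 p at or above the lowest of the testosterone list. The share of all control regions that did was not counted. Their median -log10 q, 5.27, was above that of the 15, 4.51, so the number does not set RBMS3 apart.

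Other genes of sequence-specific RNA-binding proteins that act in splicing, mRNA stability or translation were set beside the family. Of 42 such genes, 5 were credited with a testosterone region and 25 with a control region, where the shares of all protein-coding genes were 2.35% and 46.7%. A testosterone region within 1 kb of a start was credited to 1 of the 42 and a control region there to 24, where the shares of all genes were 0.918% and 39.7%. The genes with a testosterone region included PTBP1 and PTBP2, splicing repressors, ZFP36L2, which destabilizes mRNAs, and RBPMS2, a splicing factor of smooth muscle. The testosterone regions of PTBP1 (fold 4.64), PTBP2 (5.568) and ZFP36L2 (4.64) overlapped control regions. RBPMS2 had 2 testosterone regions, the nearer 830 bp from a control region. The most control regions in this list were credited to ZFP36L1 (14), PTBP1 (10), ZFP36L2 (8) and ZFP36 (6), with CELF1, IGF2BP3 and SYNCRIP next at 4 each. By credited regions, RBMS3 had more in both lists, 6 testosterone and 16 control, than any of these 42 genes. It was chosen by such counts, so this rank only describes it. On its RefSeq span it had 14 control regions, the number credited to ZFP36L1.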

How the data were processed

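H3K27ac ChIP-seq regions of KGN cells were used, 1 list per condition. Per the submitters' processing notes the tools were Bowtie2 (2.0), MACS2, bedtools and ChIPseeker, and the builds hg38 and mm10. Sources used here do not state which caller settings applied. Of the deposited columns, pileup is a signal in fragments at the summit, fold enrichment a ratio, and the significance columns hold -log10 p and -log10 q. Both significance columns had lost their headers in the testosterone table and were identified by order and values.

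The local background, (pileup + 1) / fold - 1, is in units of the pileup and gave back each -log10 p within 5.47e-05 (testosterone) and 0.00385 (control). IP fragments are the pileup over its smallest step, 1 (testosterone) and 0.9366 (control), whole within 0.0062. The depth ratio sets the lowest background against the shortest region, 223 and 231 bp. Total reads were not analysed here, and intervals cover counting error only.

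Regions were taken by the authors' gene symbol. Of 488 testosterone and 9767 control symbols, 471 and 9364 are RefSeq protein-coding symbols. Genes were named by rule: the members, their neighbors, listed genes with a testosterone region or most control regions, those most like each member and those with as many testosterone regions as RBMS3. Some genes that the rule names, and 1 of 5 stretches rich in testosterone regions, are not reported here. Members, lists and rules were chosen with earlier results of these data known. A planned protein comparison was not run. The interval code was tested on simulated data. Python 3.11.15, numpy 2.4.6, pandas 2.3.3, scipy 1.17.1 and matplotlib 3.10.9 were used.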

Additional observations from a re-analysis of the deposited data

How the results depend on the processing

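Of 30 values under alternatives, 23 stayed within 1.5 times the reported count or 5% of the reported gap, and 7 did not. The 23 include counts of 0 under a stricter filter, which could only stay at 0, so they are no measure of stability. At a -log10 q of at least 5, RBMS1 kept 0 control regions, and RBMS3 had 0 testosterone and 6 control regions. Its testosterone count thus rests on regions of low significance. This limit falls unlike on the whole lists, whose median -log10 q was 2.18 (testosterone) and 5.27 (control). At RBMS3 a -log10 p of 5.62 went with a -log10 q of 1.57 in the testosterone list. One of 5.655 went with 2.9 in the control list. At a fold of at least 4, RBMS3 had 3 testosterone regions. Control regions at the lowest testosterone -log10 p or above included 0 of RBMS1. The number of intronic testosterone regions of RBMS3 that met a control region was 1 when a gap of up to 1 kb counted and 2 when one of up to 10 kb did. Sharing at a -log10 q of at least 5 could not be computed, since no testosterone region of RBMS3 remained. Counting by the RefSeq span or, an alternative chosen after seeing the data, by the span of the authors' transcripts gave RBMS3 6 testosterone regions in both cases and 14 or 17 control regions. No paired analysis was possible because each condition had 1 IP library. The summits of the family rest on 8 to 29 IP fragments each, which sets the width of their counting intervals.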

Other observations

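Of the 7 genes around the family, none was credited with a testosterone region and 4 were credited with a control region, where the shares of all protein-coding genes were 2.35% and 46.7%. Next to RBMS1, ITGB6, an integrin subunit gene 71.9 kb away, was credited with 1 control region (fold 4.367), and TANK, an adaptor of NF-kappaB signaling 643 kb away, with 3 (strongest fold 6.312). LOC107986012 and LOC105377015, the protein-coding gene models on either side of RBMS3, were credited with none, although the region at the upstream RBMS3 start covers the promoter window of LOC107986012.

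Stretches of 398.7 kb, the length over which the testosterone regions of RBMS3 lie, were searched across the genome for others that held at least 6. There were 5 such stretches that did not overlap. Beside RBMS3, they included stretches at PDE4D (8 testosterone regions, of which 0 overlapped a control region), at ZFHX3 (7, with 1) and at CUBN, RSU1, TRDMT1 and VIM on chromosome 10 (6, with 1). RBMS3 was the 1 stretch of the 5 with a testosterone region over 50 kb from any control region.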
